A study of Homo sapiens with 17 samples.

Results

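The Krüppel-like factors KLF2, KLF3, KLF4, KLF5, KLF6, KLF7 and KLF17 were followed through the promoter contacts and the histone mark H3K4me1 of naive and primed human pluripotent stem cells (PSCs). The 7 genes were taken by name, and their baits were the captured HindIII fragments that hold a transcript start of the gene or the 1000 bp upstream of it. The lists mark a captured fragment by its strand sign and give no gene names, so the match was made by position on GRCh38. Of the 7 genes, 4 had such a fragment in the lists, namely KLF3, KLF6, KLF7 and KLF17. These were 4 of the 15982 captured fragments with a listed interaction, and they took part in 59 of 128955 interactions. A captured fragment without a listed interaction cannot be seen in the lists. No fragment that holds a KLF2, KLF4 or KLF5 promoter was in either list, so these genes were described by H3K4me1 and by the contacts of their neighbours.

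Both cell types came from the established human embryonic stem cell line WA09/H9 NK2, grown without feeders in low oxygen. Naive PSCs were kept on Matrigel with the kinase inhibitors PD0325901, CHIR99021 and Go6983 and with LIF, and primed PSCs on Vitronectin in TeSR-E8. Promoter Capture Hi-C (PCHi-C), which captures ligated pairs of HindIII fragments that contain a promoter, was made from 2 replicates per cell type, which the authors combined into 1 list each, and Hi-C from 1 library per cell type. H3K4me1 profiles came from CUT&RUN, with 2 libraries for naive PSCs and 3 for primed PSCs. The population was measured in bulk, so a mark on fewer cells and a weaker mark in every cell cannot be told apart, and the methods call the libraries biological replicates without saying whether they came from separate cultures, so p-values may measure technical spread only.

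KLFs are transcription factors with C2H2 zinc fingers at their carboxy end that bind GC-rich and CACCC-type sequences in promoters and enhancers. KLF2, KLF4 and KLF5 are part of the pluripotency circuitry, and KLF4 is a reprogramming factor. KLF17 is a marker of the naive state in human cells. KLF3 is a repressor that recruits CtBP, KLF6 is broadly expressed, and KLF7 is best known from neurons. H3K4me1 marks active and poised enhancers and the flanks of promoters.

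The depth of each H3K4me1 library was read from its smallest step, and 1 RPM stood for 6.74 to 26.6 reads. An empty 500 bp tile stands at 0.9 reads, so that low values in the shallow libraries are cruder. All 3 tested baits of naive markers (DPPA3, DPPA5 and ALPG) had more H3K4me1 in naive PSCs (limma, adjusted p under 0.05), as had 33.1% of all 22440 tested fragments of the lists. Their primed libraries all stood below -1, so they passed the filter for testing, described below, through the naive libraries alone. They then had to differ, and this count carries no weight. SUSD2, also baited, fell below the filter. None of the 7 tested baits of primed markers passed limma in either direction, nor did any at an unadjusted p under 0.05. Among all tested fragments 19.7% were primed-higher. The primed markers' 8 baits had 123 primed and 48 naive interactions, although SFRP2 (5 and 19) and SALL2 had more naive ones. Of their 6 baits with at least 5 interactions in either list, 3 were at least 2-fold higher in primed and 1 in naive PSCs (counts with 1 added). Over all such baits the shares were 25.7% and 19.9%.

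None of the tested KLF bait fragments passed the test for H3K4me1 between the cell types. A fragment with an upstream start of KLF5, outside the lists, was called, but it had met the filter for testing through the naive libraries alone. The fragment values were the mean log2 RPM of the tiles in a HindIII fragment, compared with limma. In the KLF17 bait fragment (chr1:44118422-44119918), the naive libraries stood at 0.02 and 0.41 and the primed libraries at -0.29, -0.45 and -0.43. Naive values were thus all higher, by 0.61 ± 0.30 (SE) on the log2 scale, but the difference did not pass the test (limma, adjusted p = 0.13). The KLF7 bait fragment (chr2:207159312-207167321) stood at 0.38 and -0.02 in naive PSCs and at 1.04, 0.07 and 0.71 in primed PSCs. These groups overlapped (difference -0.42 ± 0.38, limma adjusted p = 0.38). The KLF3 bait fragment (chr4:38662581-38666452) stood at -1.04 and -1.09 in naive PSCs and at -0.20, -0.85 and -1.07 in primed PSCs, again with an overlap (difference -0.36 ± 0.35, limma adjusted p = 0.41). The KLF6 bait fragment (chr10:3784017-3792536) had values between -2.44 and -1.19 and fell below the filter for testing, which asked for a value above -1 in at least 2 libraries. A fragment marked in a single cell type can pass this filter through that cell type alone and then has to differ, so counts of calls among tested fragments are descriptions.

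Of the 3 KLF baits tested, 0 were called at an adjusted p under 0.05, and 0 at an unadjusted p under 0.05. At the adjusted threshold, 33.1% of the 22440 tested fragments of the lists were naive-higher and 19.7% primed-higher. The median difference of all tested fragments was 0.33 towards naive PSCs, and fragment differences below are to be read against it. When each library was centred on its own median, the split of all calls moved from 7432 naive-higher and 4422 primed-higher fragments to 5906 and 6028.

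The genes outside the lists were read from a fit over all 117582 HindIII fragments of the genome that passed the filter, in which 28.0% were higher in naive and 29.5% in primed PSCs. The KLF4 promoter fragment (chr9:107482369-107493587) stood at -0.69 and -0.73 in naive PSCs and at -0.85, -1.37 and -1.03 in primed PSCs, a difference of 0.38 ± 0.34 that did not pass (limma, adjusted p = 0.37). The fragment with the canonical KLF5 start (chr13:73056955-73063697) differed by 0.10 ± 0.38. The fragment before it, which holds a more upstream KLF5 start (chr13:73037598-73055519), stood at 0.64 and 0.66 in naive PSCs and at -2.44, -2.57 and -2.70 in primed PSCs. This fragment of 17922 bp was higher in naive PSCs by 3.22 ± 0.34 (limma, adjusted p = 0.0013). It passed the filter through the naive libraries alone and then had to differ, so that its call carries no weight. A KLF5 fragment within the gene (chr13:73069753-73074672) was also higher, by 1.54 ± 0.47 (limma, adjusted p = 0.022). The KLF2 promoter fragment (chr19:16322958-16328958) had values between -1.76 and -1.14 in all libraries and was not tested.

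**Figure D1:**
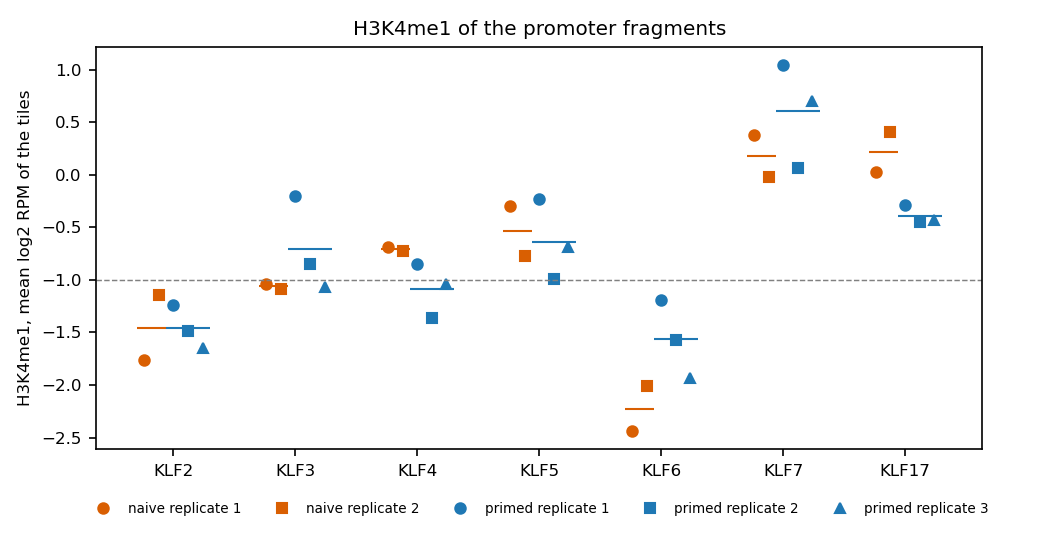
H3K4me1 of the fragment that holds each gene's canonical transcript start, as the mean log2 RPM of its 500 bp tiles (y axis) in 2 naive libraries (orange) and 3 primed libraries (blue). Short bars are group means and the dashed line at -1 is the filter. The naive libraries lie above all primed ones for KLF4 and KLF17, below them for KLF6, and overlap with them for the other genes.

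The promoter sequences of the 4 genes tied to a cell state are shown because the KLF family's own recognition sequence can be read in them. They are RefSeq promoters on GRCh38.p14, 300 bases that end 50 bases after the start, 5′ to 3′ on the gene's strand. Capitals mark CCNCNCCC on either strand, and runs longer than the motif are overlapping matches. KLF4 lies at chr9:107489720-107490019 (minus strand), KLF5 at chr13:73058755-73059054 (plus), KLF17 at chr1:44118571-44118870 (plus) and KLF7 at chr2:207165899-207166198 (minus).
KLF4: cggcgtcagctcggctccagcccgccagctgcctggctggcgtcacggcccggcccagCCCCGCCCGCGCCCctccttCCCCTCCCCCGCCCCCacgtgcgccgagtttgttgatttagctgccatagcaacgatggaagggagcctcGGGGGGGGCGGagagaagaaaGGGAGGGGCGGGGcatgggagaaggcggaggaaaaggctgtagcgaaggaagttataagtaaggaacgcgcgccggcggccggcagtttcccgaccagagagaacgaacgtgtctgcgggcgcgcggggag
KLF5: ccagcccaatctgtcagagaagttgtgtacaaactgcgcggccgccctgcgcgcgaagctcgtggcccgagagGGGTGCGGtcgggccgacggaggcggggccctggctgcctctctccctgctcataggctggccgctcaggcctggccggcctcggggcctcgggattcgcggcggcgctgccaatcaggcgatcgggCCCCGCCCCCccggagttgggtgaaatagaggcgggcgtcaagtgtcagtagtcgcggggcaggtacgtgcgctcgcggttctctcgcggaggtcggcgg
KLF17: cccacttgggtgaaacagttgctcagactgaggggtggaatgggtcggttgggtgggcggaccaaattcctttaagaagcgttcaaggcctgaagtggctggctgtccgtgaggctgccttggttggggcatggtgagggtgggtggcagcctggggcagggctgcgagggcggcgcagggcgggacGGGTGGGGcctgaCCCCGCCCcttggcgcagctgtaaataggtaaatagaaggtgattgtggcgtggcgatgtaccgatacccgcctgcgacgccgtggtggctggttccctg
KLF7: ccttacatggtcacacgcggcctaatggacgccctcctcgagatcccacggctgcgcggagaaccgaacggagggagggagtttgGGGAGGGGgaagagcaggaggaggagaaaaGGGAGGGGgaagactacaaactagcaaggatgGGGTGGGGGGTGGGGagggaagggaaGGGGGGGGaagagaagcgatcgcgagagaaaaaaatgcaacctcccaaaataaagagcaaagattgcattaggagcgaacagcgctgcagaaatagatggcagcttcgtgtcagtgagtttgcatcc

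The KLF4 promoter held 10 matches to CCNCNCCC, KLF7 6, KLF5 3 and KLF17 2. The motif was found in 56.2% of 35116 RefSeq promoters of the same length, with a median of 1 match. KLF2 and KLF6 held 7 and 6 matches. The octamer ATGCAAAT was in none of these 6 promoters (1.77% of all promoters). GCCNNNGGC, an AP-2 type motif, had 1 match each in KLF2, KLF4 and KLF17 (23.2% of all promoters). The HindIII site AAGCTT was in none of the 6 (5.84% of all promoters). A match is a run of letters and not a bound site.

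Around the naive factors KLF4 and KLF5, H3K4me1 was higher in naive PSCs over most of the marked sequence. For this the gene and 100 kb to each side were taken, a window set after KLF2, KLF4 and KLF5 were not found in the lists. Tiles that passed limma are called naive-higher or primed-higher. A tile was tested where its log2 RPM was above 0 in at least 2 libraries, which keeps tiles that are high in either cell type. A tile marked in a single cell type can pass through that cell type alone and then has to differ. Counts and runs of called tiles below are therefore descriptions. The mean RPM per tile takes all tiles of a window, tested or not. Of the 465122 tiles tested genome-wide, 26.1% were higher in naive and 26.0% in primed PSCs.

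In the KLF5 window the mean RPM per tile was 1.31 and 1.21 in the naive libraries and 0.409, 0.261 and 0.320 in the primed libraries. Naive PSCs had 3.83 times the primed level and the groups did not overlap. The window also holds another protein-coding gene, PIBF1. Of 200 tested tiles, 166 were naive-higher and 1 primed-higher (limma, adjusted p under the threshold of 0.05). They lay in long runs: 41 naive-higher tiles covered 26.5 kb that ended at the canonical start, and 43 covered 24.0 kb from 31.0 to 55.0 kb downstream of it. Within the gene itself the count was 16 of 38. The primed-higher tile lay 1.75 kb downstream of the canonical start (chr13:73060501-73061000) and held 13 and 2 reads in naive PSCs and 27, 8 and 42 reads in primed PSCs.

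The tile with the largest KLF5 difference (chr13:73045001-73045500, 13.8 kb upstream of the canonical start and outside any annotated gene) held 52 and 18 reads in naive PSCs and 0, 0 and 1 reads in primed PSCs. This tile was chosen after its values were seen. The difference was 5.06 ± 0.58 on the log2 scale (limma, adjusted p = 0.00010), and its size depends on the value given to an empty tile. The middle 300 bases of the tile (GRCh38, chr13:73045101-73045400, plus strand) are shown as the clearest naive-high sequence beside KLF5.
KLF5 upstream tile: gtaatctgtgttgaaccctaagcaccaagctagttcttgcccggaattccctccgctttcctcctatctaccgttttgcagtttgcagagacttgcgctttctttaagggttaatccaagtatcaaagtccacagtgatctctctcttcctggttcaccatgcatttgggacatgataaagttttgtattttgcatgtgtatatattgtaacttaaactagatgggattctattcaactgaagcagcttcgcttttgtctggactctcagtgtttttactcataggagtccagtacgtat

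In the KLF4 window the mean RPM per tile was 0.964 and 1.02 in naive PSCs and 0.339, 0.295 and 0.260 in primed PSCs. Naive PSCs had 3.32 times the primed level, again without overlap. Of 145 tested tiles, 117 were naive-higher and 4 primed-higher. The longest run, of 26 tiles over 17.0 kb, lay from -33.2 to -50.2 kb of the canonical start, and 18 tiles over 12.5 kb lay from -2.73 to -15.2 kb. KLF4 was the only protein-coding gene in its window. The gene body went the other way. Of its 5 tested tiles, 3 were higher in primed PSCs and 0 in naive PSCs. The first of these (chr9:107488001-107488500, 1.52 kb downstream of the start) stood at -2.12 and -2.75 in naive PSCs and at 1.02, 0.34 and -0.27 in primed PSCs, a difference of -2.80 ± 0.63 (limma, adjusted p = 0.0019). The mean RPM over the gene body was 0.392 and 0.376 in naive PSCs and 0.996, 0.680 and 0.786 in primed PSCs.

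The KLF4 tile with the largest difference, again chosen after its values were seen, lay 34.0 kb upstream (chr9:107523501-107524000) outside any annotated gene. It held 61 and 20 reads in naive PSCs and 0, 2 and 1 reads in primed PSCs (difference 4.86 ± 0.71, limma adjusted p = 0.00014). Its middle 300 bases (GRCh38, chr9:107523601-107523900, plus strand) are printed for comparison with the KLF5 tile.
KLF4 upstream tile: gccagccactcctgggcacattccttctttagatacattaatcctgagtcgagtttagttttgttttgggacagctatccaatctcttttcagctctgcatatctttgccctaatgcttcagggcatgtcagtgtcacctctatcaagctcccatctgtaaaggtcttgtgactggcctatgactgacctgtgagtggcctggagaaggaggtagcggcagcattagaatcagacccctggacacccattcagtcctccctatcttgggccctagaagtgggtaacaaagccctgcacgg

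Neither this sequence nor that of KLF5 held CCNCNCCC, which was found in 27.2% of the middles of all tested tiles.

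**Figure D2:**
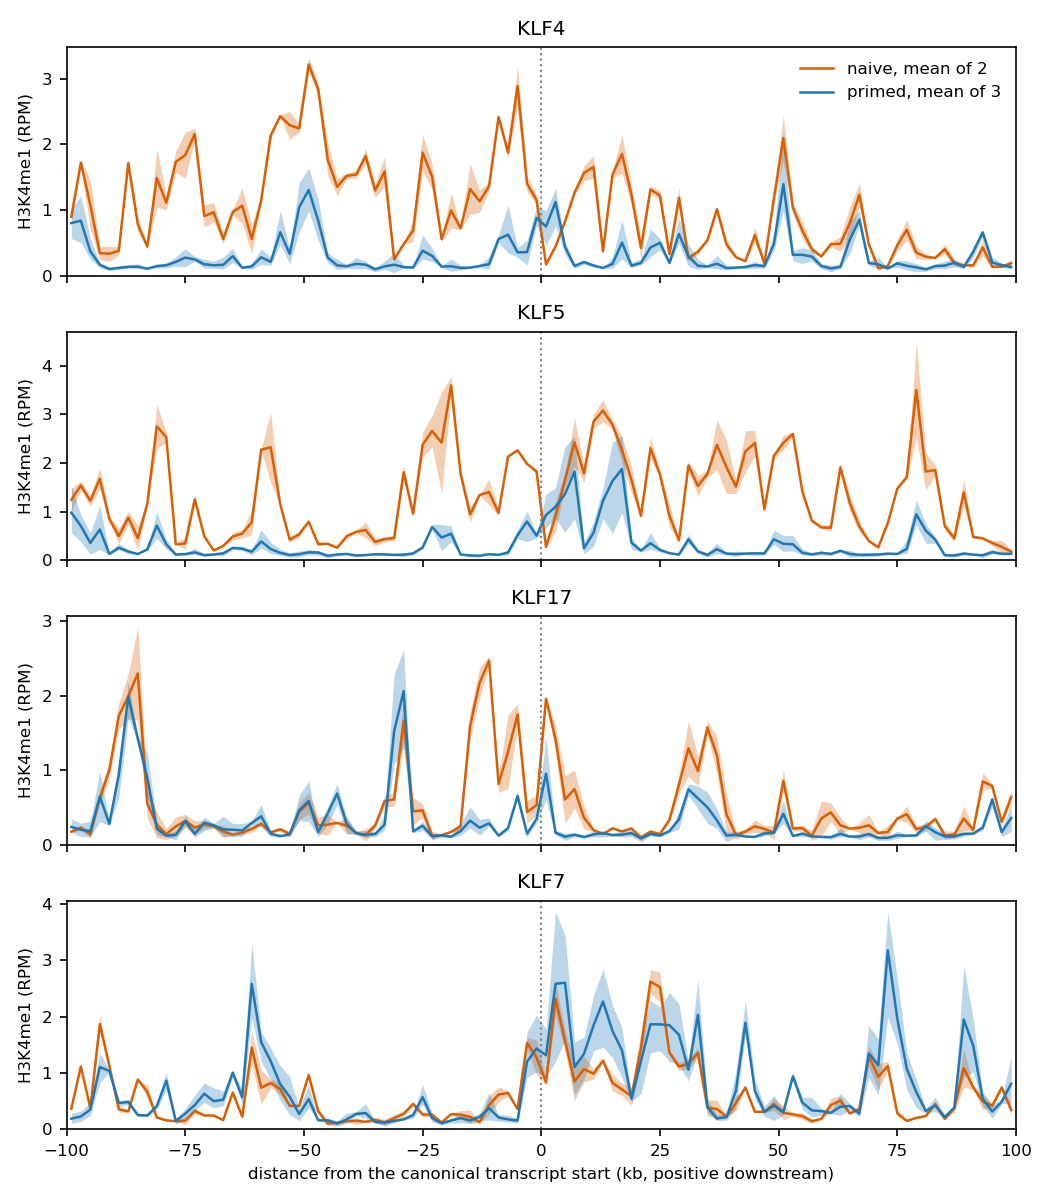
H3K4me1 around the canonical transcript start of KLF4, KLF5, KLF17 and KLF7 in bins of 2 kb. The y axis gives mean RPM per 500 bp tile, lines are group means (2 naive libraries in orange, 3 primed libraries in blue) and bands run from the lowest to the highest library. Naive signal exceeds primed signal on both sides of KLF4 and KLF5, just downstream of whose starts the order turns over.

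The KLF17 window carried less H3K4me1 in naive PSCs than those of KLF4 and KLF5. In this window the mean RPM per tile was 0.420 and 0.580 in naive PSCs and 0.294, 0.324 and 0.264 in primed PSCs. Naive PSCs had 1.70 times the primed level, again without overlap. Of 56 tested tiles, 26 were naive-higher and 2 primed-higher, and without naive replicate 2 the first count was 16. With 200 kb to each side the naive-higher share fell from 46.4% to 30.9%, near the genome-wide 26.1%, and the ratio of mean RPM was 1.28. The main naive run held 12 tiles from -15.3 to -8.82 kb of the start. In the gene body 5 of 7 tested tiles were higher in naive PSCs, and the mean RPM was 3.02 times as high. The window also holds 4 other protein-coding genes, SLC6A9, ERI3, KLF18 and DMAP1.

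The KLF2 window was sparse, with 21 tested tiles among 407. Of these 10 were naive-higher and 0 primed-higher. With edgeR, and with limma at an unadjusted p under 0.05, the counts were 11 and 0. The naive count was 4 without naive replicate 2 and 6 without naive replicate 1 or primed replicate 3. A run of 6 tiles lay from 14.2 to 17.7 kb downstream of the start. The mean RPM over the window was 0.258 and 0.369 in naive PSCs and 0.177, 0.258 and 0.181 in primed PSCs, so the lower naive library met the highest primed library.

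Around KLF7 the few differences ran towards primed PSCs. Of 150 tested tiles, 26 were higher in primed PSCs and 8 in naive PSCs, which is a smaller share than genome-wide in both directions. Inside the gene, 23 of 95 tested tiles were higher in primed PSCs and 2 in naive PSCs. The longest run, of 11 tiles, lay 72.4 to 78.4 kb downstream of the start within the gene. Its strongest tile (chr2:207090001-207090500) held 4 and 1 reads in naive PSCs and 20, 12 and 39 reads in primed PSCs (difference -3.38 ± 0.59, limma adjusted p = 0.00035). Mean RPM over the window was 0.519 and 0.551 in naive PSCs and 0.807, 0.517 and 0.628 in primed PSCs, so primed replicate 2 lay below both naive libraries, and without it 44 tiles were primed-higher.

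In the KLF3 window 22 of 72 tested tiles were higher in naive PSCs, near the genome-wide share. In primed PSCs 2 were higher, or 2.78% against 26.0% genome-wide. Without naive replicate 2 the naive count was 5, without naive replicate 1 it was 8, and without primed replicate 3 it was 14. Mean RPM over the KLF3 window was 0.529 and 0.544 in naive PSCs and 0.388, 0.327 and 0.341 in primed PSCs. Naive PSCs had 1.52 times the primed level. The groups did not overlap, nor did they with 50 or 200 kb to each side. In the KLF6 window 4 of 35 were naive-higher and 7 primed-higher, and the primed count was 4 without naive replicate 2. Mean RPM over the KLF6 window was 0.256 and 0.282 in naive PSCs and 0.337, 0.306 and 0.266 in primed PSCs, with an overlap. The KLF6 result depended on the window: with 200 kb to each side 18 of 50 tested tiles were primed-higher, against 7 of 35 in the main window. With 50 or 200 kb all primed libraries lay above both naive libraries in mean RPM.

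**Figure D3:**
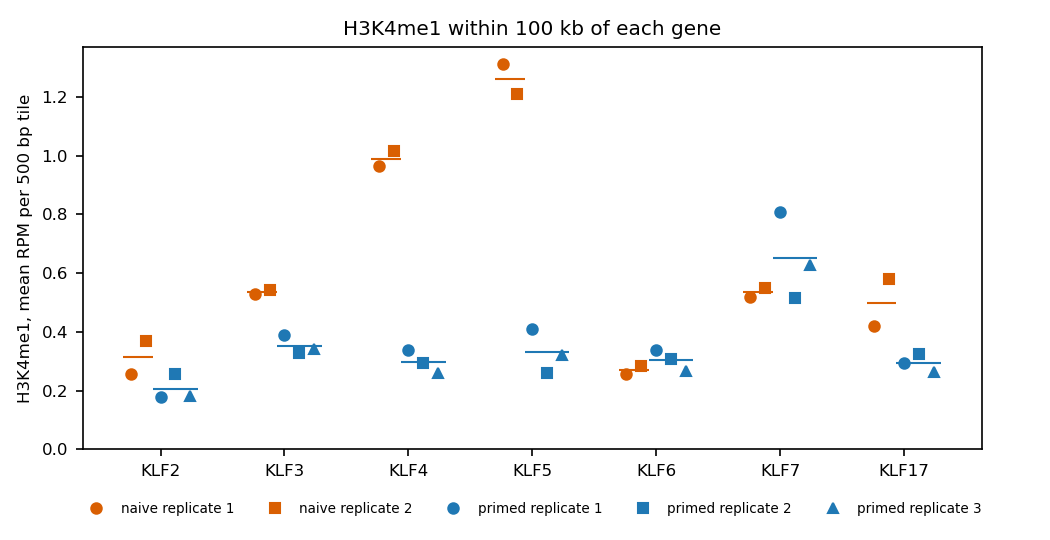
Mean H3K4me1 (RPM per 500 bp tile, y axis) over each gene and 100 kb to each side, per library, with naive libraries in orange, primed libraries in blue and short bars for group means. KLF5 and KLF4 stand apart, at 3.83 and 3.32 times the primed level in naive PSCs, whereas primed libraries reach the naive values or above for KLF2, KLF6 and KLF7.

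In PCHi-C, the 4 KLF baits had 35 naive and 45 primed interactions, and 21 of them were the same pair of fragments. The shared pairs made up 60.0% of the naive list's KLF interactions, with a 95% Wilson interval of 43.6 to 74.4 that covers counting error only, and 46.7% of the primed list's (32.9 to 60.9). Over all baits the shares were 49.6% and 44.2%. With 1 list per cell type the differences have no replicate check. The lists hold only scores of at least 5, so a pair listed in 1 cell type only may have scored just below 5 in the other. Nearly all interactions belonged to KLF3 and KLF7. With partner ends allowed to differ by up to 10 kb, 27 of the 35 naive interactions had a primed counterpart and 29 of the 45 primed interactions a naive one, which is 77.1% and 64.4%. Over all baits, with each interaction counted from every bait it touches, the shares were 66.3% and 63.0%.

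The KLF7 bait, which also holds starts of MIR7845 and MYOSLID, had 12 naive and 25 primed interactions, of which 9 were shared. Counted with 1 added to each, this was 2.00-fold higher in primed PSCs, exactly at the fold used next. With the same number of top-scoring interactions taken from each list it was 23 against 12, or 1.85-fold, below that fold. Of 7685 baits with at least 5 interactions in either list, 25.7% were at least 2-fold higher in primed and 19.9% in naive PSCs. All 9 shared KLF7 interactions had a higher score in primed PSCs, as had 50.8% of the 39360 shared interactions of all baits. The 9 pairs held 168 naive and 242 primed reads. At a score of at least 10, 7 primed interactions and 0 naive interactions of KLF7 were left.

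Most KLF7 partners, 21 of 28, lay to the right of the bait, upstream of the gene and inside introns of the long non-coding RNA ENSG00000223725. A group of 10 partners at 279 to 319 kb was listed 10 times in primed PSCs and 5 times in naive PSCs. The pair with the highest primed score (chr2:207479739-207481066) scored 13.21 with 32 reads in primed PSCs and 7.31 with 18 reads in naive PSCs. A group of 5 partners at 171 to 179 kb was listed 3 times in naive and 4 times in primed PSCs, with best scores of 11.92 in primed and 8.66 in naive PSCs. The 3 partners in chr2:207396594-207413281 and the 3 at 340 to 343 kb were listed in primed PSCs only. To the left, 4 partners at -365 to -353 kb lay in ENSG00000229321, another non-coding gene. Its pair at chr2:206800550-206806018 scored 5.25 in naive and 10.78 in primed PSCs.

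Whole KLF7 partner fragments were compared next. Of 15 tested partners, 3 were primed-higher and 0 naive-higher, and at an unadjusted p under 0.05 the counts were 4 and 0. The primed-higher share lay at the background of 19.7% of all tested fragments. All 3 were among the 9 tested of 16 partners listed in primed PSCs only. The filter can be passed through the primed libraries alone, as by the fragments at chr2:207502124-207504891 and chr2:207411843-207413281. The 3 calls therefore carry no weight as a count. Of the 16 primed-only partners, 6 had a higher mean in naive PSCs. The widest was chr2:207458446-207459240, not tested, at -1.64 and 0.25 in naive PSCs and at -3.30, -2.98 and -2.73 in primed PSCs. Over all KLF partners the primed-higher count was 4, and 9 without primed replicate 2. The fragment at chr2:207502124-207504891, 340 kb from the bait, stood at -2.70 and -1.49 in naive PSCs and at 0.41, -1.12 and -0.38 in primed PSCs. All primed libraries were higher, and the difference was -1.73 ± 0.52 (limma, adjusted p = 0.022). The fragment at chr2:207411843-207413281 stood at -1.67 and -1.80 in naive PSCs and at 0.29, -0.54 and 0.09 in primed PSCs, a difference of -1.68 ± 0.34 (limma, adjusted p = 0.0042). The 6 tested shared partners were not called. The best-scoring partner of the primed list, at 317 kb, stood at -3.92 and -1.89 in naive PSCs and at -0.98, -2.65 and -0.49 in primed PSCs and did not pass (difference -1.53 ± 0.75, limma adjusted p = 0.12). It passed in limma with the highest tile of the fragment (adjusted p = 0.030), without naive replicate 2 (adjusted p = 0.040) and without primed replicate 2 (adjusted p = 0.015).

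The KLF3 bait, which is shared with KLF3-AS1, had 22 naive and 18 primed interactions, of which 11 were shared. All 29 partners lay to its left, upstream of KLF3, at 173 to 607 kb, and 19 of them were outside annotated genes. A group of 10 neighbouring fragments at -351 to -326 kb carried 10 naive and 8 primed interactions, with 265 and 245 reads. The fragment chr4:38319964-38320598 at its centre had the highest score of any KLF partner, 26.06 with 51 reads in naive PSCs and 31.26 with 60 reads in primed PSCs. This contact was therefore strong in both cell types. The flank of the group facing away from KLF3 (chr4:38312220-38314447 and chr4:38314448-38317312) was listed in naive PSCs only, with scores of 9.50 and 11.13. Farther out, TBC1D1 partners at -581 to -566 kb were listed in primed PSCs only (3 pairs), whereas the pairs at -439 to -393 kb were listed in naive PSCs only (4 pairs). The partner chr4:38114555-38119612 holds a start of TBC1D1, a Rab GTPase-activating protein, and scored 8.97 in naive and 9.38 in primed PSCs.

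**Figure D4:**
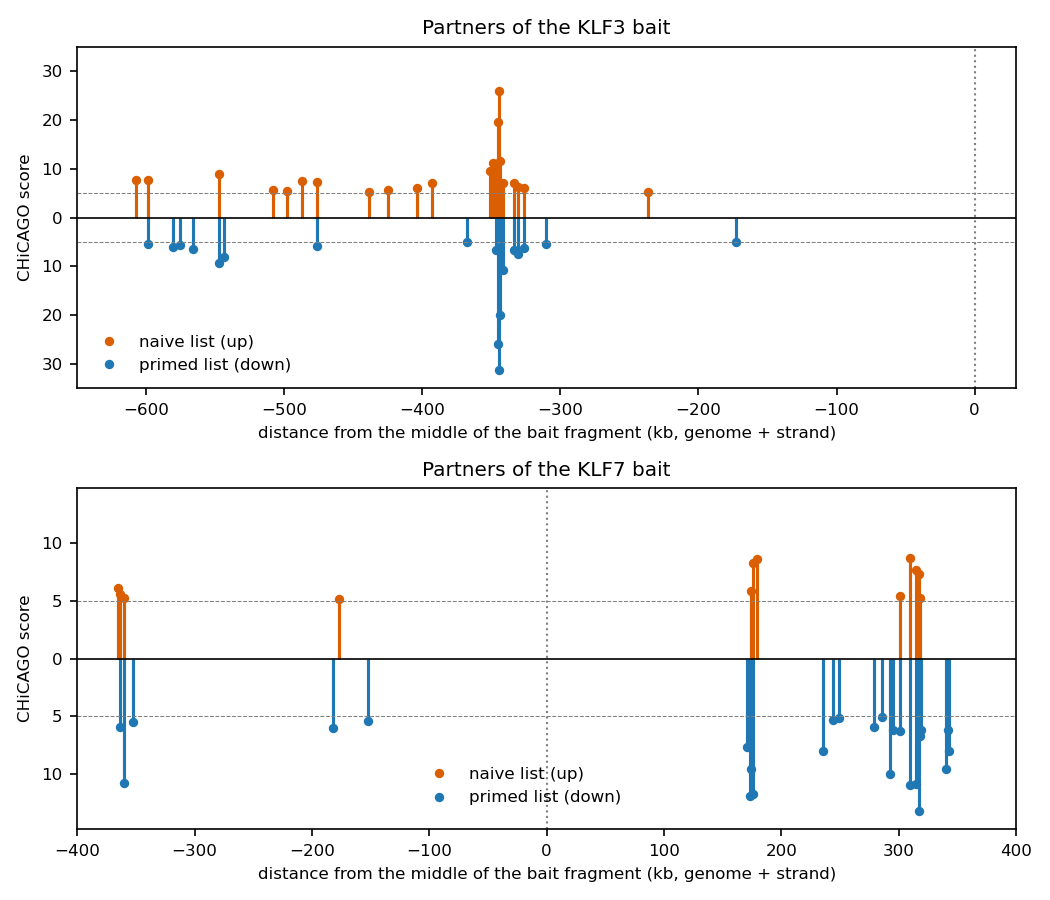
CHiCAGO scores of all partners of the KLF3 and KLF7 baits (y axis, naive list upwards, primed list downwards) against the distance from the bait (x axis, kb). The dashed lines mark the score threshold of 5. KLF3 has a peak at -344 kb in both lists, and KLF7 has 25 primed against 12 naive partners.

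At the KLF3 partners, most called fragments were naive-higher. Of 10 tested partners, 6 were naive-higher and 1 primed-higher, and 19 fell below the filter. Over all tested fragments of the lists the shares were 33.1% and 19.7%. The 3 tested naive-only partners and the shared partner chr4:38114555-38119612 passed the filter through the naive libraries alone. The primed-higher partner passed it through the primed libraries alone. All these calls therefore carry no weight as a count. Over all 11 naive-only partners, 10 had a higher mean in naive PSCs, with a median difference of 0.65. The shared KLF3 partners were similar, with 9 of 11 and a median of 0.48. For the primed-only ones these were 2 of 7 and -0.15. Over all 88413 fragments of the lists they were 47160 and 0.06. Among the 3 tested naive-only partners, the first was chr4:38155337-38157886 at 508 kb. It stood at 1.86 and 1.22 in naive PSCs and at -1.96, -1.58 and -1.67 in primed PSCs. This was the widest gap among KLF3 partners, with a difference of 3.28 ± 0.33 (limma, adjusted p = 0.00059). The naive-only flank fragment chr4:38312220-38314447 followed with 0.77 and 0.66 in naive PSCs and -3.01, -1.89 and -1.92 in primed PSCs (difference 2.99 ± 0.40, limma adjusted p = 0.00093). Of the primed-only partners, chr4:38087091-38090373 in TBC1D1 stood at -2.71 and -2.53 in naive PSCs and at -0.56, -0.62 and -0.55 in primed PSCs, a difference of -2.04 ± 0.29 (limma, adjusted p = 0.0011). Another primed-only partner, chr4:38119613-38121952, was however higher in naive PSCs by 0.98 ± 0.33 (limma, adjusted p = 0.035). All 6 naive-higher partners of the KLF baits were KLF3 partners. Over all KLF baits the count was 9 without the filter, 2 without naive replicate 1, and 3 without naive replicate 2 or primed replicate 3.

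At the centre of the group, where the contact was strongest, H3K4me1 did not pass in either direction. The fragment chr4:38319964-38320598 stood at 1.36 and 0.57 in naive PSCs and at 0.76, 0.19 and -0.15 in primed PSCs (difference 0.70 ± 0.40, limma adjusted p = 0.18). The adjacent chr4:38318564-38319963 stood between 0.69 and 1.48 in all 5 libraries (difference 0.18 ± 0.37, limma adjusted p = 0.71). Both were marked in both cell types. The middle 300 bases of the first (GRCh38, chr4:38320132-38320431, plus strand, no annotated gene) are printed as the sequence with the highest contact score, with 1 match to CCNCNCCC in capitals. The motif was in 21.3% of the middles of 85401 listed fragments.
KLF3 partner: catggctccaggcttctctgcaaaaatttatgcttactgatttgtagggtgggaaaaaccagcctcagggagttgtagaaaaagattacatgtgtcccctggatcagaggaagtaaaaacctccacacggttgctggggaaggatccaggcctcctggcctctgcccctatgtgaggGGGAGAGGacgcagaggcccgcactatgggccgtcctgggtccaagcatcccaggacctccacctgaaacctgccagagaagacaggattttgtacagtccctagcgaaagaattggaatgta

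**Figure D5:**
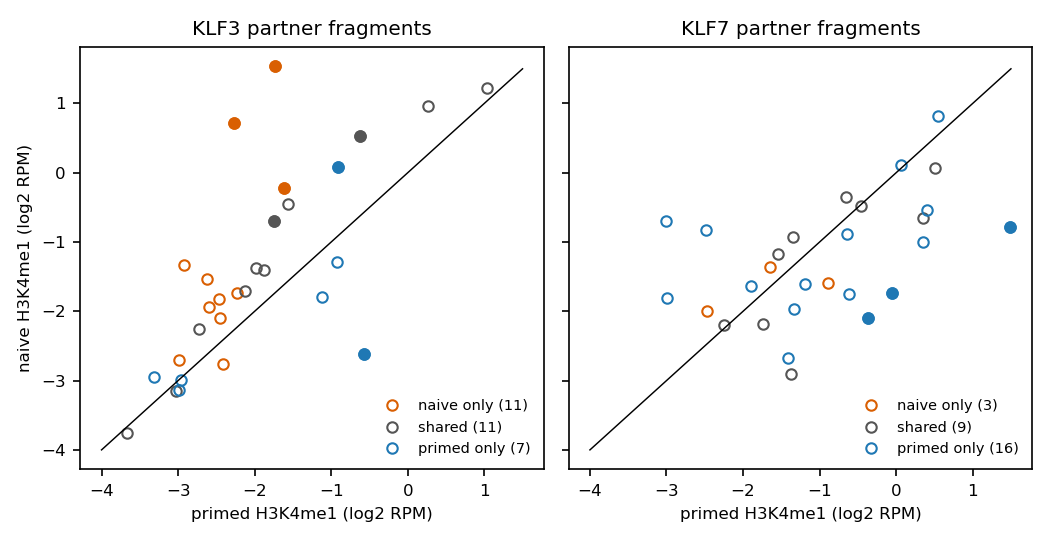
H3K4me1 of KLF3 and KLF7 partner fragments in primed PSCs (x axis) and naive PSCs (y axis), as group means of log2 RPM, with the line of equality. Colours give the list in which the interaction was found, and filled points passed limma. Filled points of KLF3 lie mainly above the line (6 of 7) and those of KLF7 below it (3 of 3). A fragment marked in a single cell type can pass the filter through it alone, so these counts are descriptions.

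Inside the bait and partner fragments of all 4 genes, 142 tiles were tested, of which 20 were naive-higher and 18 primed-higher. These shares lie below those of all tiles. The naive count was 11, 12 and 13 without naive replicate 1, naive replicate 2 and primed replicate 3. The primed count was 6 without naive replicate 2, 10 without naive replicate 1, primed replicate 1 or primed replicate 3, and 33 without primed replicate 2. KLF3 partners had 16 naive-higher and 2 primed-higher tiles of 41, and KLF7 partners 4 and 15 of 76. None of the 21 tested tiles of the bait fragments was called by limma, and 1 was primed-higher with edgeR and at an unadjusted p under 0.05.

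KLF17 had a single interaction, which was found in both cell types and joined it to the bait of DMAP1 (chr1:44213025-44218636) at 96.7 kb. The score was 11.98 with 47 reads in naive PSCs and 5.11 with 39 reads in primed PSCs, so that a threshold of 7 would leave it in naive PSCs only. DMAP1, a subunit of chromatin remodelling complexes, had 15 partners between its bait and 100 kb upstream of KLF17. All 15 were listed in naive PSCs and 4 of them also in primed PSCs, with best scores of 27.21 and 10.58. Of the 53 interactions of any bait that touched the KLF17 window, 26 were listed in naive PSCs only, 15 in primed PSCs only and 12 in both. The DMAP1 fragment stood at -1.04 and -0.88 in naive PSCs and at -2.01, -1.65 and -1.82 in primed PSCs and was below the filter.

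KLF6 had a single interaction, found in primed PSCs only, at 868 kb with a fragment that holds starts of the non-coding genes LINC00705 and MANCR (chr10:4655231-4656849, score 6.05 with 11 reads). Of the 13 interactions of any bait that touched the KLF6 window, 10 were listed in primed PSCs only, 2 in naive PSCs only and 1 in both. In the whole lists, 39360 of the 88985 primed interactions were shared with naive PSCs. The 13 are few, and their split is a description. H3K4me1 at the partner ranged from -2.72 to -0.49 and was not tested.

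KLF4 and KLF2 had no listed contact in their windows. In the KLF5 window 10 interactions were listed, 9 in naive PSCs only and 1 in primed PSCs only. In the whole lists, 39360 of the 79330 naive interactions were shared with primed PSCs. The 10 are few, and their split is a description. A captured fragment 36.3 kb beyond the end of KLF5 (chr13:73111402-73116297), which holds a start of the small nuclear RNA pseudogene RNU6-66P, made 8 of them. All 8 were naive interactions, with a best score of 7.54. This fragment overlaps the second long run of naive-higher tiles.

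Hi-C counts between the 100 kb bins of bait and partner were set against the mean of all pairs at the same distance on the chromosome that both files list. The KLF3 bin and that of its group of 10 partners had 309 naive and 308 primed contacts, 2.45 times (95% interval 2.19 to 2.74, counting error only) and 1.94 times (1.73 to 2.17) the mean. The KLF7 bin and the bin at 300 kb to its right had 287 and 352 contacts, 2.33 times (2.07 to 2.62) and 2.31 times (2.08 to 2.57) the mean. The bin at 400 kb to the right holds the 3 primed-only partners at 340 to 343 kb. It had 137 naive and 148 primed contacts with the KLF7 bin. These were 1.53 times (1.28 to 1.80) and 1.30 times (1.09 to 1.52) the mean, above it in both cell types. The only other bin whose partners were all primed-only lay 100 kb to the left. It went the other way, at 1.23 times the mean in naive and 1.46 times in primed PSCs. The KLF6 pair had 44 naive and 120 primed contacts, 1.28 times (0.931 to 1.72) and 2.43 times (2.01 to 2.90) the mean. At this distance of 900 kb the mean rests on 405 pairs, since the naive file leaves out pairs with few contacts. KLF17 and DMAP1 lay in adjacent bins with 317 and 359 contacts, 0.912 and 0.888 times the mean. These libraries have no replicates, and no test was made.

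Baits that shared most partners with the KLF baits lay close by. TLR10 shared 11 partners with KLF3, which were 37.9% of the KLF3 and 42.3% of the TLR10 partners (Jaccard index 0.25). The bait of FAM114A1, TLR1 and TLR6 shared 6 (0.18) and that of FAM114A1 and MIR574 shared 2 (0.063). For KLF7 the closest were MIR2355 with 7 shared partners (0.23), CPO with 5 (0.16) and DYTN with 4 (0.14).

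Among the other 19 genes of the KLF and SP family, 14 had a bait in the lists, with 126 naive and 142 primed interactions, 69 of them shared. Of the 10 baits with at least 5 interactions in either list, 3 were at least 2-fold higher in naive and 4 in primed PSCs, where 19.9% and 25.7% of all such baits were. KLF8 had 13 naive and 4 primed interactions, KLF13 9 and 3. SP8 and SP9, which act in limb and forebrain development, had 4 and 2 naive interactions but 19 and 21 in primed PSCs. Of the 12 tested baits, 3 were higher in naive PSCs (KLF8, KLF9 and KLF11) and 1 in primed PSCs (KLF15), against 33.1% and 19.7% of all tested fragments. KLF8 stood at 0.46 and 0.62 in naive PSCs and at -0.96, -1.52 and -1.91 in primed PSCs (difference 2.00 ± 0.36, limma adjusted p = 0.0024).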

How the data were processed

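For PCHi-C, the authors filtered read pairs with HiCUP on GRCh38, combined the replicates within CHiCAGO and deposited a CHiCAGO score of at least 5 and a rounded read number per interaction. Hi-C values are counts of di-tags per pair of 100 kb bins, deposited without normalisation. For H3K4me1, reads were trimmed with Trim Galore 0.5.0 and mapped with Bowtie2 2.3.2, and the deposited values are log2 RPM per 500 bp tile. NANOG, SOX2 and input libraries were not analysed here.

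The lists hold no gene names, so baits were matched by position to promoters of GENCODE release 44. The 7 genes and the lists were chosen with earlier results of these data known. Fragments and tiles were compared in naive and primed PSCs with limma 3.58.1 (R 4.3.3, lmFit and eBayes with trend), with Benjamini-Hochberg adjustment over all tested features and a threshold of 0.05. edgeR 4.0.16 was applied to whole reads recovered from log2 RPM (100% within 0.01), chosen after seeing the data. The fits were tested on simulated data. Alternatives were other summaries, pseudocounts, filters, scalings, windows, score thresholds and leaving out each library. Genes were named by rule: the 7 members, their 3 best-scoring partners per cell type, the partner with the largest H3K4me1 difference in each direction, promoters among the partners and the 3 baits sharing most partners. Other partners named were chosen after their values were seen. The sequence and values of 1 KLF7 partner fragment that this rule names are not reported here.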

Additional observations from a re-analysis of the deposited data

How the results depend on the processing

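KLF4 had 90 to 126 and KLF5 132 to 172 naive-higher tiles when 1 library was left out. KLF7 had 18 to 44 primed-higher tiles, and 44 when libraries were centred on their medians. With 1 library left out, 2 to 5 partner fragments were higher in naive PSCs (main count 6) and 3 to 9 in primed PSCs (main count 4), and tiles inside the fragments ranged from 11 to 23 and from 6 to 33. Centring gave 9 primed-higher partners and 28 primed-higher tiles, and quantile normalisation and the highest tile gave 8 partners each. Without the filter on low values, 9 partners and 27 tiles were naive-higher and 4 partners and 15 tiles primed-higher. With 200 kb to each side the naive-higher share for KLF17 was 30.9% (main 46.4%) and KLF6 had 18 of 50 primed-higher tiles (main 7 of 35). The bait fragments gave 0 calls under all alternatives. The replicate numbers were not taken as pairs in the main fit. Correlations of deviations were 0.081 and 0.051 over the 2 pairs with the same number. With 2 naive libraries the naive deviations mirror each other, so these values cannot decide whether the libraries were paired. With replicate number as a block, naive-higher partners fell to 3. A score of at least 7 left 20 naive, 19 primed and 9 shared interactions, and at least 10 left 5, 11 and 3, which turned the order of the totals at 7 but not at 10. The difference at chr4:38318564-38319963 was 0.18, turned to -0.14 on centring and ranged from -0.061 to 0.43 with 1 library left out. That at chr2:207468681-207477167 was -0.02, turned to 0.082 in the fit with the replicate block and ranged from -0.39 to 0.25 with 1 library left out. None of these values passed limma. In the shallowest library 1 RPM stood for 6.74 reads, which limits tiles of low signal. The cause of these changes was not tested.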
